A study of Mus musculus with 14 samples.

Results

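The genotype effect, that is the difference between mutant embryos and their own wild-type littermates, was compared between 2 mouse models of Down syndrome by RNA-seq of the embryonic hippocampus. The 189N3 line, Tg(Dyrk1a)189N3Yah, carries an extra copy of Dyrk1a on a transgene. The Dp(16)1Yey line, Dp(16Lipi-Zfp295)1Yey, was used as heterozygotes that carry a duplication of mouse chromosome 16 from Lipi to Zfp295, so that Dyrk1a is present in an extra copy in both models. There were 3 libraries of 189N3 embryos, 3 of their littermates, 4 of Dp(16)1Yey/+ embryos and 4 of their littermates. The stage was E16 to E18, the wild-type strain named in the methods is C57BL6, and neither the sex of the embryos nor the stage of each library is given. The sources do not say if a library stands for a single embryo, so p-values measure the spread between these libraries. For every locus the difference was computed as the Dp(16)1Yey/+ effect minus the 189N3 effect on the scale log2(value + 1). All 36045 loci whose values averaged 10 or more over the 14 libraries entered, of 59796 in the table, and 14779 of them had a gene name. A value is the number of fragments of a locus divided by 1 size factor per library, so levels are compared between libraries and not between genes.

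DYRK1A is a dual-specificity protein kinase whose dosage affects neurogenesis, neuronal differentiation and synapses. The chromosome 16 segment holds Dyrk1a together with many other orthologs of human chromosome 21 genes, among them App, the amyloid precursor protein gene, and Olig1 and Olig2, transcription factors of the oligodendrocyte lineage. At late embryonic stages the hippocampus contains dividing progenitors, maturing pyramidal neurons, arriving interneurons and Cajal-Retzius cells. Red blood cells, meninges and choroid plexus lie next to it. In bulk RNA, fewer cells of a type and less RNA per cell cannot be told apart.

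Several libraries stood apart from their groups. The library labelled Dp(16)1Yey replicate 1 had a median of 0.11 over the genes of the duplicated segment relative to its littermates, on the log2 scale, against 0.40, 0.58 and 0.69 in the other Dp(16)1Yey/+ libraries. The littermates of this line lay at −0.13 to 0.12, so replicate 1 was within their range, and 189N3 replicate 2 was at 0.32 over its own littermates. Dp(16)1Yey replicate 1 also had the highest levels of the red blood cell, muscle, histone and cell cycle lists among all 14 libraries. Littermate replicate 2 of the 189N3 line had the highest level of the skin list. Littermates of Dp(16)1Yey/+ came as replicates 0 and 1 and replicates 2 and 3 that were nearly alike, with squared differences of 1.65 and 2.003 times counting noise in the median locus, against 31.5 to 36.5 for the other pairings. The main fit counted these littermates as 4 libraries, so p-values and SE that use them may be too small. With each pair averaged, loci with an unadjusted p-value under 0.05 for the difference fell from 957 to 427. The Dyrk1a p-value for the difference (limma) rose from 0.0686 to 0.118. Y-linked genes were at 0 to 0.846 in 189N3 replicate 0 and at 289 to 3145 in the other libraries. All libraries were kept under their labels, and the depth ran from 20809135 to 29098453 fragments. All 23 markers of the hippocampal fields entered the test, and their summed value was 72904 to 103724 in every library.

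Sequences before the transcription start are shown for genes that represent the patterns below, namely Hba-a2 and Hist1h2ab (H2ac4 in RefSeq), whose lists had opposite signs in the models, and Ermn and Acvr1c, which were higher in both. They are the 120 bases before the RefSeq start on GRCm38.p6, read 5′ to 3′ on the gene's strand, from chr11:32296372-32296491 (plus strand), chr13:23750968-23751087 (plus), chr2:58052865-58052984 (minus) and chr2:58357759-58357878 (minus). Capitals mark CCAAT or its reverse complement ATTGG, the letters of the CCAAT box.
Hba-a2: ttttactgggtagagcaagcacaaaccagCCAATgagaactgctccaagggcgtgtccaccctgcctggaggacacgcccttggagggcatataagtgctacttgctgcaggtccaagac
Hist1h2ab: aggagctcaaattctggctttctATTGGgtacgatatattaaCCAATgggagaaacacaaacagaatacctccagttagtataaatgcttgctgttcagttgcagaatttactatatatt
Ermn: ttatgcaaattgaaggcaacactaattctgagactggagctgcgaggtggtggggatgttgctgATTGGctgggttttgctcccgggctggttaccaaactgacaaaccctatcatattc
Acvr1c: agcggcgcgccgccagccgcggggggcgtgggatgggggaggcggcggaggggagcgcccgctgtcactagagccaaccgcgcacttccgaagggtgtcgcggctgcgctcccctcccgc
The letters occurred in 6994 of 32851 windows of this length before RefSeq starts (21.3%, either strand). Both directions of the motif are present before Hist1h2ab, and neither is present before Acvr1c in this window. Acvr1c has 2 RefSeq starts, of which the one farthest upstream was used. Its window lies within the GENCODE span of the gene given below, so it may not be upstream of every transcript.

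No locus passed an adjusted p-value of 0.05 for the difference between the models in limma's moderated test, and the smallest adjusted p-value was 0.922. At an unadjusted p-value under 0.05 there were 957 loci (2.66%), of which 553 (1.53%) had the higher effect in Dp(16)1Yey/+ mice and 404 (1.12%) the higher effect in 189N3 mice. The edgeR quasi-likelihood test on recovered fragments gave 906 loci (2.51%) and DESeq2 gave 887 (2.46%), and both had 0 at an adjusted p-value under 0.05. The share with the higher effect in Dp(16)1Yey/+ mice was 57.8% of these loci on the deposited scale, 49.5% with median-ratio size factors and 47.5% after quantile normalization. Named loci leaned the other way, with 142 higher (0.961%) and 244 lower (1.65%), 386 in all (2.61%), against 411 and 160 among the 21266 unnamed loci. Neither model alone had a locus at an adjusted p-value under 0.05 in this fit. Against littermates, 450 loci had an unadjusted p-value under 0.05 in 189N3 mice (1.25%) and 1622 in Dp(16)1Yey/+ mice (4.5%). The statements below are therefore about signs, sizes and unadjusted p-values.

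Opposite signs were more common than equal signs. Among named loci, 40.3% were above littermates in 189N3 and below them in Dp(16)1Yey/+ mice, and 24.3% had the reverse pattern, whereas 18.6% were higher and 16.7% lower in both. Across named loci the Pearson correlation of the 2 effects was −0.28 and the Spearman correlation −0.35, given as a description because loci share libraries. The Pearson value stayed below 0 when any library was left out, between −0.39 and −0.061. It was −0.061 without 189N3 littermate replicate 2, −0.11 without 189N3 replicate 2 and −0.12 when Dp(16)1Yey replicate 1 was left out. The plot of both effects shows 13 of 14 red blood cell genes and 15 of 22 skin genes in the upper left quadrant, with 6 skin genes in the lower left, and genes of the duplicated segment above 0 for Dp(16)1Yey/+ mice and around 0 for 189N3 mice.

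**Figure D1:**
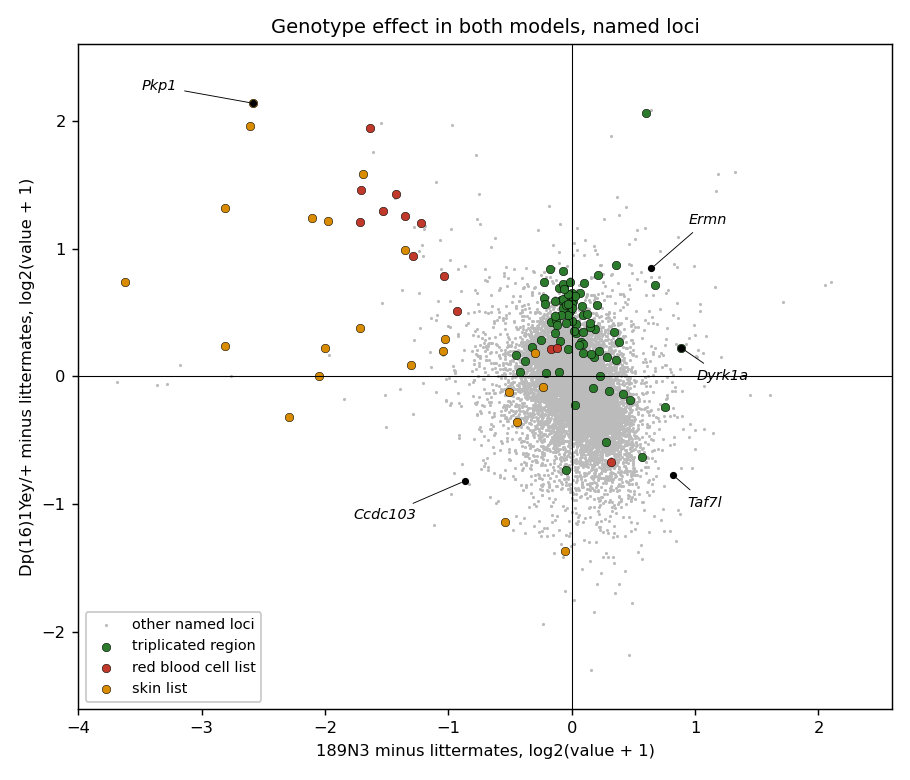
Genotype effect in 189N3 mice (horizontal) and in Dp(16)1Yey/+ mice (vertical), each as mutant minus littermates on log2(value + 1), for 14779 named loci. Genes of the duplicated segment have a median of 0.01 horizontally and 0.43 vertically, and red blood cell genes medians of −1.25 and 1.13.

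Loci that moved alike were few. An unadjusted p-value under 0.05 in both models with the same sign was found for 17 loci (0.0472%), 11 higher (0.0305%) and 6 lower (0.0166%). The named ones were Ermn, Acvr1c and AK152437 among the higher and Ccdc103 among the lower. They were selected by these p-values, so that the values below are a description. The other 13 loci had no gene name, and among named loci the share was 0.0271%. By a rule on levels alone, 24 loci (0.0666%) had no overlap between mutants and littermates in either model with the same direction in both, and 32 (0.0888%) with opposite directions.

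Ermn, at chr2:58045113-58052864, encodes ermin, a cytoskeletal protein of myelinating oligodendrocytes. Its values were 98.1, 59.6 and 108 in 189N3 libraries against 53.7, 46.0 and 65.3 in littermates. In Dp(16)1Yey/+ libraries they were 68.2, 67.0, 48.98 and 59.4 against 31.9, 30.7, 42.1 and 29.3. The Dp(16)1Yey/+ libraries all lay above their littermates, and 189N3 replicate 1 lay within the littermate range. The log2 effects were 0.65 ± 0.26 (SE) in 189N3 and 0.85 ± 0.22 in Dp(16)1Yey/+ mice (limma, unadjusted p = 0.0237 and 0.00166).

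Acvr1c, near Ermn on the same strand at chr2:58267453-58357895, encodes ALK7, a receptor of the activin family. Its 189N3 values were 223, 194 and 235 against 133, 148 and 132 in littermates, with no overlap. Dp(16)1Yey/+ values were 235, 207, 284 and 242 against 206, 227, 142 and 157, and here the groups overlapped. Effects were 0.66 ± 0.21 and 0.42 ± 0.18 (unadjusted p = 0.00591 and 0.033). A further chromosome 2 gene, Lypd6 at chr2:50066429-50193569, a modulator of WNT and nicotinic receptor signalling, had effects of 0.44 ± 0.21 and 0.46 ± 0.18 (unadjusted p = 0.0525 and 0.0239). The transcript AK152437 had no overlap between mutants and littermates in either model, with effects of 0.43 and 0.63.

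Ccdc103, at chr11:102881204-102885216, is needed for the assembly of dynein arms in motile cilia. Its values were 12.7, 19.6 and 22.8 in 189N3 libraries against 45.0, 29.8 and 27.8 in littermates. In Dp(16)1Yey/+ libraries they were 24.7, 15.3, 17.3 and 19.1 against 42.2, 35.6, 29.1 and 30.3. All mutant libraries lay below all littermates of their own line in both models. The effects were −0.87 ± 0.30 and −0.82 ± 0.26 (unadjusted p = 0.00991 and 0.00575), and the difference between models was 0.05 ± 0.39. With the 14 libraries left out in turn, Ccdc103 was called again for 12, and Ermn, Acvr1c and AK152437 for 10 each.

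For the next genes in this order the unadjusted p-value was above 0.05 in at least 1 model. Rfx5, a transcription factor of MHC class II genes, had effects of −0.66 and −0.41 (unadjusted p = 0.0119 and 0.0579). Dnajb13, a component of the ciliary radial spoke, had −0.98 and −0.92 (unadjusted p = 0.0804 and 0.0595). Rec8, a meiotic cohesin subunit, had −0.72 and −0.65 (unadjusted p = 0.0835 and 0.0714). Tmem50b, a membrane protein gene of the duplicated segment, was higher in both lines without overlap, with effects of 0.36 ± 0.19 and 0.87 ± 0.16 (unadjusted p = 0.0729 and 6.63e-05).

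**Figure D2:**
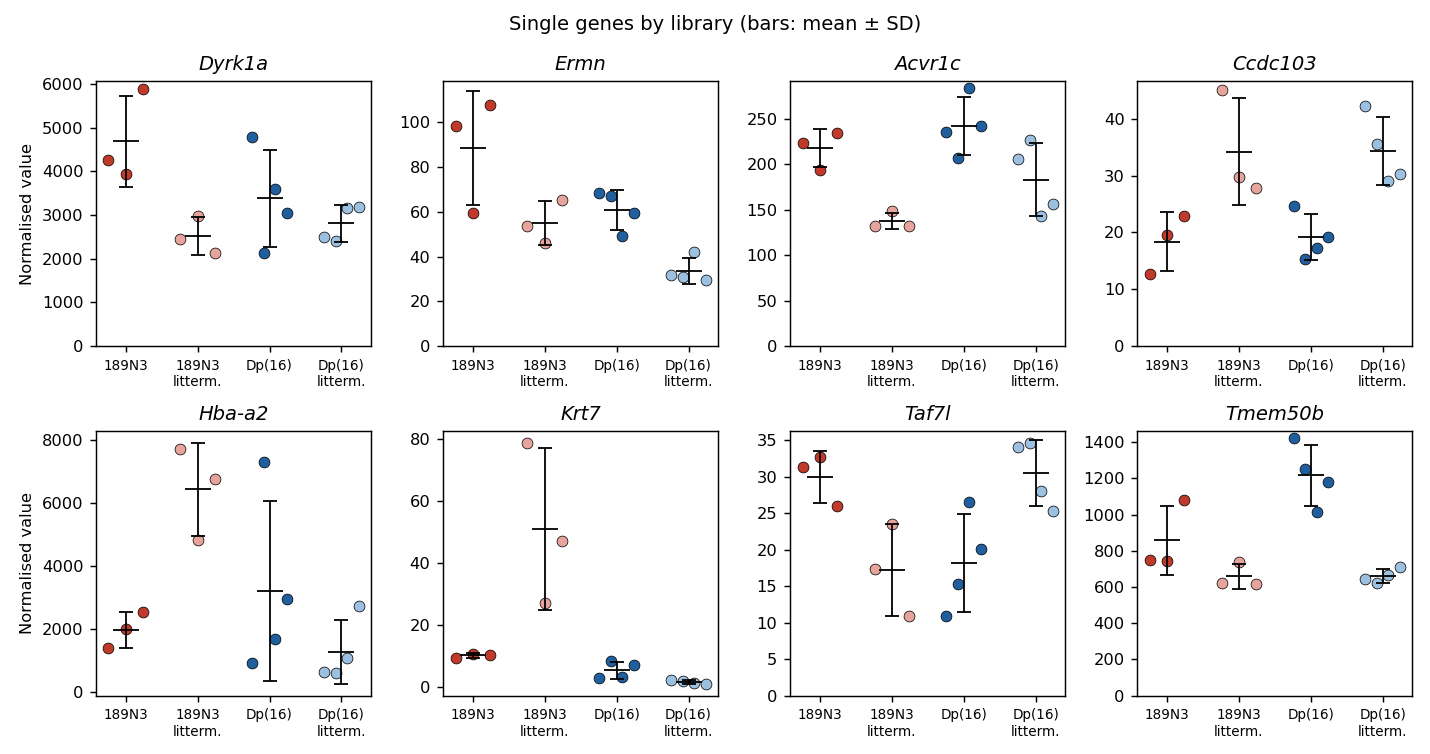
Normalised values of 8 genes in every library (points), with the mean and SD of each group (bars). Ermn and Acvr1c are higher and Ccdc103 lower than in littermates in both models. Hba-a2 and Krt7 are lower in 189N3 mice and Taf7l higher, with the reverse in Dp(16)1Yey/+ means, and Tmem50b is higher in both.

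Of the 34 lists, 9 had medians of the same sign in both models and 25 of opposite sign, while 64.7% of all named loci had opposite signs. The 25 include the sex-linked list, with medians of −3.23 and 0.02. Some medians near 0 turned sign under other scalings or count tests. These were the immediate early, interneuron, WNT and SR medians in 189N3 mice and the sex-linked median in Dp(16)1Yey/+ mice. Cajal-Retzius genes, which mark the reelin-producing neurons of the marginal zone, had medians of −0.21 in 189N3 and −0.37 in Dp(16)1Yey/+ mice. Of 13 of these genes, 10 were lower in both and 0 higher in both (16.7% and 18.6% of all named loci). In Dp(16)1Yey/+ mice 2 of them had an unadjusted p-value under 0.05 (2.4% of all loci lower), Barhl2 at −1.41 (unadjusted p = 0.00351) and Car10 at −1.06 (unadjusted p = 0.0329), and in 189N3 mice 0. The 189N3 effect of Barhl2 was −0.07, and that of Car10 was near 0. When single libraries were dropped, the 189N3 median ran from −0.33 to 0.04 and the Dp(16)1Yey/+ median from −0.46 to −0.19.

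Interferon-stimulated genes, which act in antiviral defence, were lower in both for 18 of 32 and higher in both for 1 (16.7% and 18.6% of all named loci). Their medians were −0.16 and −0.27. The strongest members did not share a sign. Isg20, an exonuclease, had effects of −1.38 in 189N3 (unadjusted p = 0.00926) and 0.68 in Dp(16)1Yey/+ mice, with a difference of 2.06 ± 0.62 (unadjusted p = 0.0042). Usp18, the deubiquitinase that removes ISG15, had 0.47 and −2.18 (unadjusted p = 0.00557), with a difference of −2.64 ± 1.04 (unadjusted p = 0.0217). Choroid plexus genes were lower in both for 8 of 14 (16.7% of all named loci). However, their medians of −0.09 and −0.24 ran from −0.52 to 0.58 and from −0.66 to −0.07 when single libraries were left out.

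Loci that moved in opposite directions numbered 40 at an unadjusted p-value under 0.05 in both models (0.111%). In 30 of them (0.0832%) the 189N3 effect was below 0 and the Dp(16)1Yey/+ effect above 0, and in 10 (0.0277%) the reverse held. The 16 named loci of the larger set included Alas2, Hba-a2, Hbb-bs, Hbb-bt, Slc4a1, Slc25a37, Fam46c, Cd36, Col1a2, Col14a1, Krt6a, Krt7, Krt13, Pkp1 and B230119M05Rik. Taf7l was the named locus of the smaller set, and named loci with opposite directions made up 0.115% of those tested. Most of the 16 are genes of red blood cells, epidermis or connective tissue rather than of neurons.

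Red blood cell genes had the reverse sign in the models for 14 of 14 tested (64.7% of all named loci). Of these, 13 were lower in 189N3 and higher in Dp(16)1Yey/+ mice (24.3% of all named loci). The medians were −1.25 and 1.13, and the median difference was 2.32 on the log2 scale. In 9 of 14 the difference had an unadjusted p-value under 0.05, against 1.53% of all loci in that direction. Of 19 red blood cell genes found, 14 passed the filter on the mean value. Low members may pass it through the groups in which they are high. The filter may thus favour these signs, and the counts are a description. Hba-a2, an adult alpha globin gene at chr11:32296489-32297298, was at 1396, 1997 and 2532 in 189N3 libraries and at 7724, 4830 and 6771 in littermates. In Dp(16)1Yey/+ libraries it was at 907, 7321, 1693 and 2951 against 644, 614, 1083 and 2748. The 189N3 groups did not overlap, whereas in Dp(16)1Yey/+ mice replicate 1 was far above the others and the groups overlapped. The difference was 2.92 ± 0.81 (unadjusted p = 0.00234).

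Alas2, the first enzyme of erythroid heme synthesis, showed a difference of 1.82 ± 0.51 (unadjusted p = 0.0027). Hbb-bs, an adult beta globin gene, had effects of −1.35 and 1.25. The summed value of the 19 red blood cell genes found ran from 17974 to 28251 in 189N3 libraries and from 41850 to 64833 in their littermates. It ran from 9367 to 66908 in Dp(16)1Yey/+ libraries and from 7673 to 22741 in their littermates. No member was at 0 throughout a group. The 2 littermate groups differed by a median of −1.89 before any genotype effect, the Dp(16)1Yey littermates being lower. When Dp(16)1Yey replicate 1 was left out, the Dp(16)1Yey/+ median was 0.51 and the difference 1.76.

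Skin genes, mostly keratins and desmosomal proteins, were lower in 189N3 and higher in Dp(16)1Yey/+ mice for 15 of 22 (24.3% of all named loci). Their medians were −1.71 and 0.23. The difference had an unadjusted p-value under 0.05 in 12 of 22 (1.53% of all loci in that direction). Of 32 skin genes found, 22 reached the mean of 10, and low members could reach it through the 189N3 littermates. Krt13 was at 45.0, 16.2 and 44.7 there and at 0 to 5.03 in the Dp(16)1Yey line. The filter thus favours these signs, and the counts are a description. The same may hold for the 14 of 19 red blood cell and 8 of 18 muscle genes tested. Krt7, a simple epithelial keratin at chr15:101411043-101430313, had the smallest p-value of all named loci. It was at 9.31, 10.6 and 10.4 in 189N3 libraries against 78.8, 27.1 and 47.1, and at 2.97, 8.23, 3.06 and 7.04 in Dp(16)1Yey/+ libraries against 2.06, 1.98, 1.08 and 1.01. Neither pair of groups overlapped, the difference was 3.35 ± 0.61 (unadjusted p = 4.85e-05, adjusted p = 0.922), and the locus was called again with each of the 14 libraries left out. Krt6a was called again for 11 of them, Taf7l for 10, Hba-a2 for 9, Alas2 and Pkp1 for 7, Hbb-bs and Col1a2 for 6 and Slc4a1 for 4. The Dp(16)1Yey values correspond to few fragments, since 1 fragment is worth about 1 unit there.

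Pkp1, the desmosomal plakophilin, had effects of −2.58 and 2.14, and Krt6a −2.61 and 1.96. Pkp1 was at 29.5, 9.93 and 36.3 in 189N3 littermates, at 38.8 in Dp(16)1Yey replicate 1 and at 0 to 10.1 elsewhere. Krt6a was at 51.1, 12.6 and 39.9, at 23.5 and at 0 to 8.30 in the same order. The filter on the mean thus favours these signs in both genes, and the effects are a description. The summed value of 32 skin genes was 823 to 1410 in 189N3 libraries against 1304 to 5667 in littermates, and 603 to 1189 in Dp(16)1Yey/+ libraries against 563 to 913. Flg and Ivl, which define the outer epidermis, were at 0 in every library of the Dp(16)1Yey line. Without 189N3 littermate replicate 2 the 189N3 median was −0.52 and the difference 0.52.

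Muscle and connective tissue lists followed the same pattern. All 8 muscle genes were lower in 189N3 and higher in Dp(16)1Yey/+ mice (24.3% of all named loci), with medians of −0.79 and 1.16. Of the 8, 4 had an unadjusted p-value under 0.05 for the difference (1.53% of all loci in that direction). The summed value of 18 muscle genes was 1756 to 3255 in 189N3 libraries against 2565 to 3172 in littermates and 1694 to 3243 in Dp(16)1Yey/+ libraries against 1278 to 2461, so that mutants and littermates overlapped in both lines. No muscle gene was at 0 throughout a group. Without Dp(16)1Yey replicate 1 the Dp(16)1Yey/+ median of the muscle genes was 0.25 and the difference 1.39. Among 25 collagen and connective tissue genes, 14 had this pattern, with medians of −0.46 and 0.07, and 6 passed (24.3% of named loci and 1.53% of all loci). The median of 0.07 was −0.04 without Dp(16)1Yey replicate 1 or littermate replicate 2 of that line, and the median of −0.46 was −0.17 without 189N3 replicate 0. Col1a2, a chain of type I collagen, was at 385, 548 and 578 against 2168, 660 and 1692 in the 189N3 line. In the Dp(16)1Yey line it was at 86.0, 1010, 277 and 437 against 138, 153, 63.7 and 161. The littermate groups thus differed more from each other than mutants differed from littermates in either line.

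**Figure D3:**
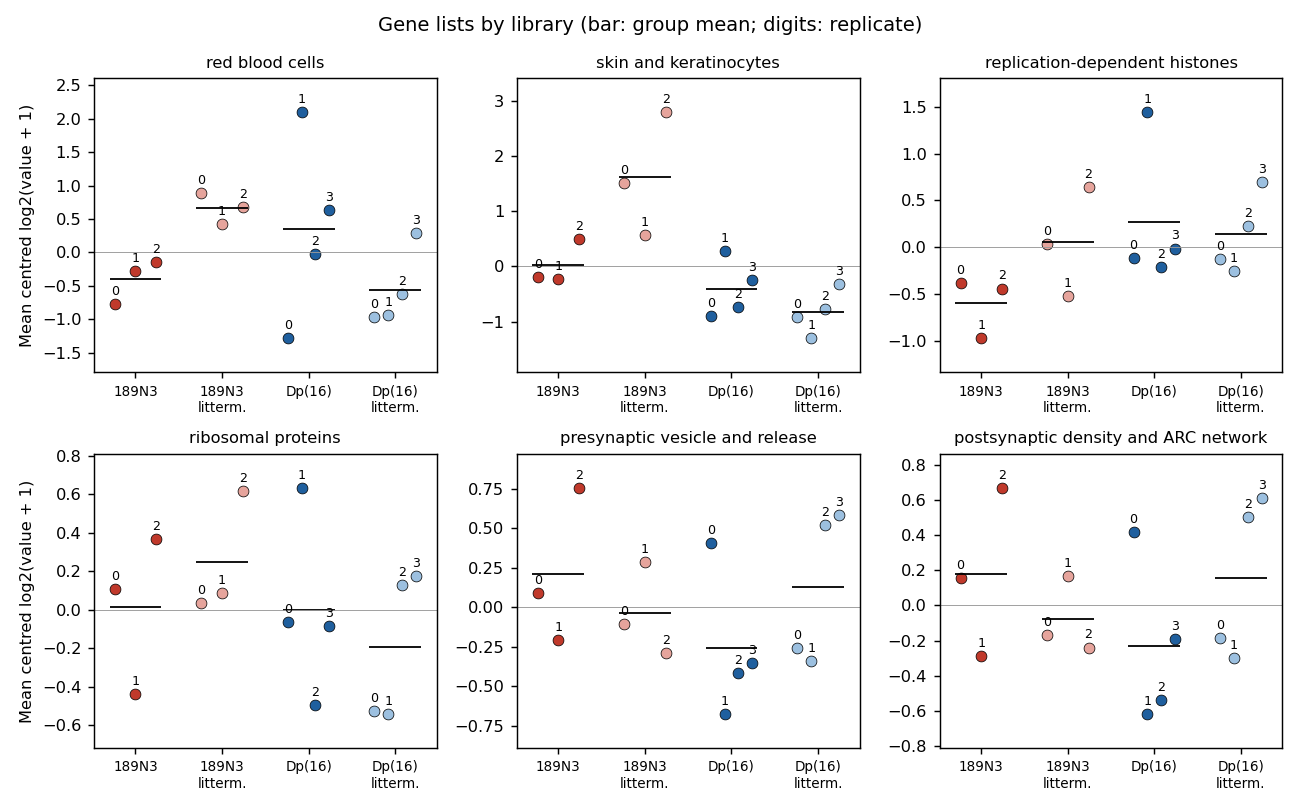
Mean log2(value + 1) of 6 gene lists in each library, centred over the 14 libraries, with points numbered by replicate and bars at group means. Dp(16)1Yey/+ replicate 1 is the highest library for red blood cells (2.09) and histones (1.44), and 189N3 littermate replicate 2 for skin (2.79).

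Genes with the opposite orientation, above littermates in 189N3 and below them in Dp(16)1Yey/+ mice, were led by Taf7l, a paralog of a subunit of the general transcription factor TFIID on chromosome X (chrX:134460118-134476490). Its values were 31.3, 32.6 and 25.9 against 17.3, 23.5 and 10.9 in the 189N3 line, with no overlap. In the Dp(16)1Yey line they were 10.9, 15.3, 26.5 and 20.1 against 34.0, 34.6, 28.1 and 25.3, where replicate 2 overlapped. The difference was −1.59 ± 0.44 (unadjusted p = 0.00252).

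Dbn1, which encodes the actin-binding protein drebrin of dendritic spines, had effects of 0.51 and −0.44, and Snap91, a clathrin assembly protein of synaptic vesicles, 0.57 and −0.47. In Dbn1 and Snap91 the groups overlapped in both lines. Other genes with small p-values for the difference had their larger effect in the Dp(16)1Yey line. Pamr1 had effects of 0.02 and −1.75, and Mmp28, a matrix metalloproteinase, 0.75 and −1.21, and in both genes Dp(16)1Yey/+ libraries lay below all littermates. Lars2, the mitochondrial leucyl-tRNA synthetase, had 0.10 and −1.28, while its littermate levels were 126 to 159 in the 189N3 line and 3380 to 6765 in the Dp(16)1Yey line.

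Synaptic genes had this orientation as groups, with small effects and few single p-values under the threshold. Of 48 presynaptic genes, 38 were higher in 189N3 and lower in Dp(16)1Yey/+ mice, with medians of 0.25 and −0.38 and a median difference of −0.62. Of 40 postsynaptic genes 30 did so (0.27 and −0.39), of 30 glutamate receptor genes 24 (0.25 and −0.37) and of 24 genes of GABA receptors, GABA synthesis and chloride transport 17 (0.15 and −0.47). Over all named loci 40.3% had this pattern, with medians of 0.04 and −0.05. The difference had an unadjusted p-value under 0.05 in 2 of 48, 1 of 40, 3 of 30 and 0 of 24 (1.12% of all loci in that direction).

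Otof, the calcium sensor otoferlin, gave the most negative presynaptic difference, at −2.14 ± 0.75 (unadjusted p = 0.0113). It was at 40.6, 38.3 and 89.3 against 32.9, 40.6 and 16.9 in the 189N3 line, and at 66.3, 14.1, 36.7 and 29.2 against 55.6, 36.6, 130 and 148 in the Dp(16)1Yey line. The groups overlapped in both lines. Unc13a, the vesicle priming factor Munc13-1, had a difference of −1.04 ± 0.43 (unadjusted p = 0.0279). Nlgn3, the adhesion protein neuroligin 3, had −0.74 ± 0.32 (unadjusted p = 0.0319). Grin2c, an NMDA receptor subunit, had effects of 0.73 and −1.13 (difference, unadjusted p = 0.0242), and Grin2b, the subunit prevalent in the embryo, 0.42 and −0.46 (unadjusted p = 0.0474). Camk2a, a kinase of the postsynaptic density, had 0.51 and −0.96 (unadjusted p = 0.0766).

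The library values show that these medians rest on a spread within groups. The presynaptic level, as mean centred log2, was 0.09, −0.21 and 0.76 in 189N3 libraries against −0.10, 0.29 and −0.29. In Dp(16)1Yey/+ libraries it was 0.41, −0.67, −0.42 and −0.35 against −0.26, −0.34, 0.52 and 0.58 in littermates. The groups overlapped in both lines, and the littermates of the Dp(16)1Yey line split into their nearly alike pairs. The signs of the presynaptic and postsynaptic medians were kept with each library left out, but their size moved. Without 189N3 replicate 2 the 189N3 medians were near 0 (presynaptic) and 0.04 (postsynaptic), and the differences −0.35 and −0.40. Without Dp(16)1Yey replicate 1 the Dp(16)1Yey/+ medians were −0.22 and −0.24, and the presynaptic one was also −0.22 without littermate replicate 3 of that line. The 189N3 median of the GABA list was −0.08 without 189N3 replicate 2.

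Guidance, immature neuron, chromatin remodelling and oligodendrocyte precursor lists had the same orientation, which 40.3% of all named loci had. Axon guidance genes of the Robo, Slit, ephrin, semaphorin and netrin families were higher in 189N3 and lower in Dp(16)1Yey/+ mice in 35 of 50, with medians of 0.21 and −0.24. Epha8, an ephrin receptor, had effects of 0.54 and −1.38 (difference −1.92, unadjusted p = 0.0129) and Slit1, a secreted repellent, 0.42 and −0.44 (unadjusted p = 0.0376). Epha3 went the other way in Dp(16)1Yey/+ mice, at 0.67 without overlap, and its 189N3 effect was 0.04. Immature neuron genes did so in 16 of 23, with medians of 0.26 and −0.24. The latter was −0.06 without Dp(16)1Yey replicate 1 or littermate replicate 2 of that line, and the 189N3 median was 0.05 without 189N3 replicate 2. In this list Ncam1, a cell adhesion molecule, had effects of 0.44 and −0.36 (unadjusted p = 0.0463). Subunits of the BAF chromatin remodelling complex did so in 18 of 26 with medians of 0.12 (0.01 without 189N3 replicate 2) and −0.14 and 0 unadjusted p-values under 0.05. Oligodendrocyte precursor genes did so in 8 of 10, with medians of 0.36 and −0.52, Cspg4, the NG2 proteoglycan, at 0.44 and −0.60 (unadjusted p = 0.022) and Bcan, brevican, at 0.18 and −0.67 (unadjusted p = 0.0352).

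Endothelial and pericyte genes were higher in 189N3 and lower in Dp(16)1Yey/+ mice in 15 of 22, with medians of 0.05 and −0.35, the former between −0.16 and 0.25 with single libraries left out. Flt1, a VEGF receptor, had 0.60 and −0.71 (unadjusted p = 0.0183), and Slc2a1, the glucose transporter of the blood-brain barrier, 0.46 and −0.39 (unadjusted p = 0.0358). Striatal genes did so in 11 of 22, with medians of 0.22 and −0.35, and neocortical projection neuron genes in 11 of 22, with medians of 0.22 and −0.04. The share of this pattern over all named loci was 40.3%. Without 189N3 replicate 2 the striatal 189N3 median was −0.18, and without Dp(16)1Yey replicate 2 the neocortical Dp(16)1Yey/+ median was 0.08. It was also above 0 without littermate replicate 2 or 3 of that line (0.04 and 0.03). The levels of the striatal list in the Dp(16)1Yey littermates were −1.06 and −0.84 in replicates 0 and 1 and 1.58 and 1.64 in replicates 2 and 3. The part of other cell types, of dissection and of these libraries in the neuronal differences was not tested.

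**Figure D4:**
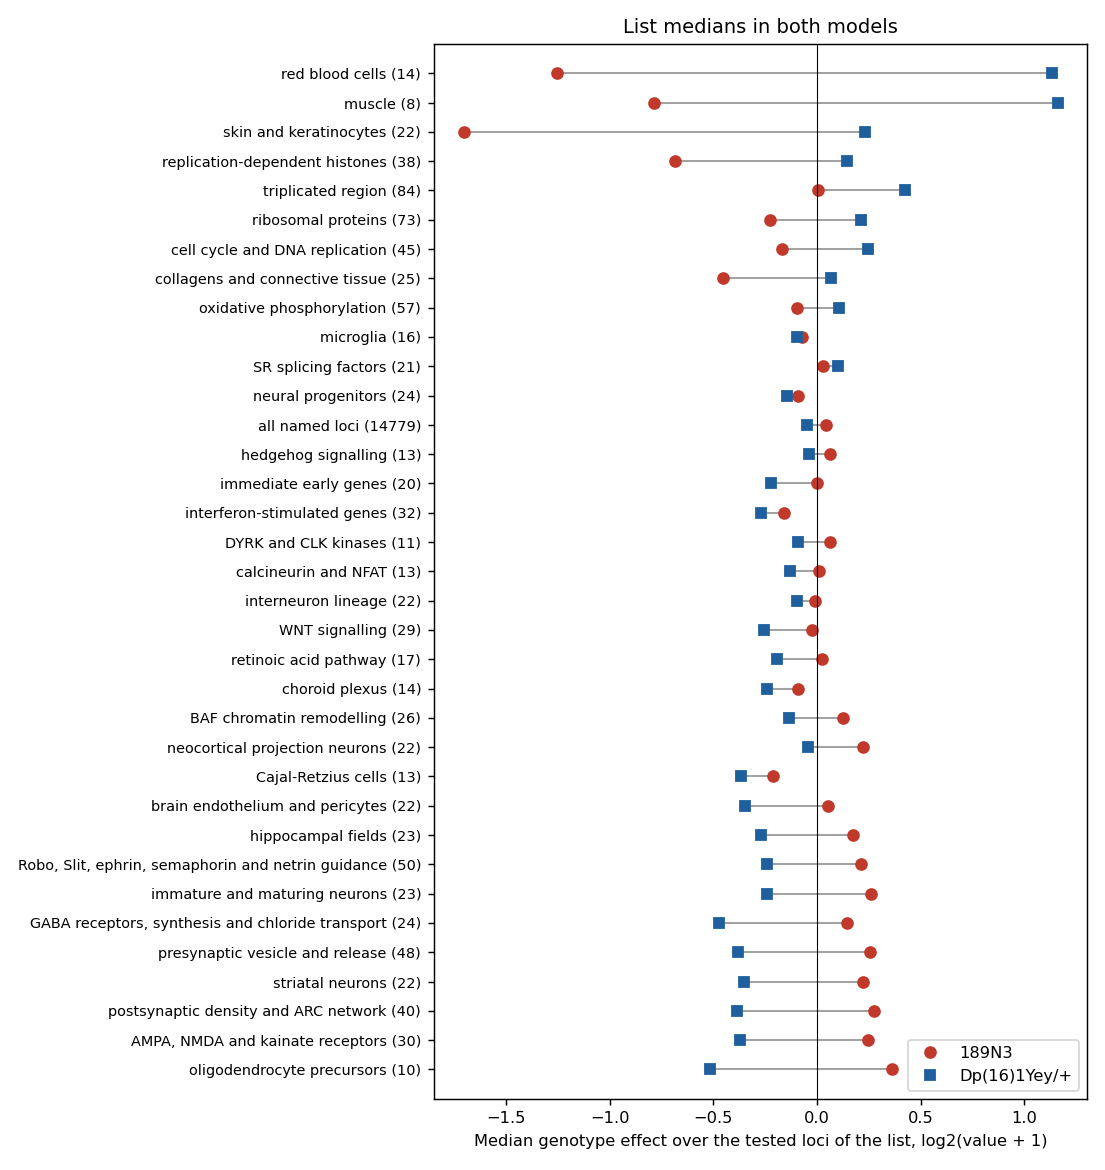
Median genotype effect on log2(value + 1) of each list in 189N3 mice (circles) and Dp(16)1Yey/+ mice (squares), ordered by the median difference, with the number of tested loci in brackets. Synaptic lists lie right of 0 for 189N3 and left for Dp(16)1Yey/+ mice, and histones, ribosomal proteins and cell cycle genes show the reverse.

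Histone, cell cycle, ribosomal and respiratory genes showed the reverse orientation. Of 38 replication-dependent histone genes, whose transcripts accumulate in S phase, 38 had a lower 189N3 effect than Dp(16)1Yey/+ effect. This held for 6142 of 14779 named loci. In 30 the signs were opposite, and 8 were lower in both (24.3% and 16.7% of all named loci). The medians were −0.68 and 0.15 and the median difference 0.77. Single genes did not pass: the difference had an unadjusted p-value under 0.05 in 0 of 38, and the 189N3 effect in 3 of 38 (0.891% of all loci lower). Hist1h2ab, an H2A gene, was at 141, 62.0 and 124 against 211, 124 and 290 in the 189N3 line. In the Dp(16)1Yey line it was at 132, 488, 123 and 144 against 84.5, 123, 182 and 249. Hist1h4f, an H4 gene, had effects of −1.14 (unadjusted p = 0.0461) and 0.07. When Dp(16)1Yey replicate 1 was left out, the Dp(16)1Yey/+ median of the histones was −0.28, the same sign as in 189N3 mice, and the difference was 0.36. Without 189N3 littermate replicate 2 the 189N3 median was −0.35 and the difference 0.52. Histone genes have near-identical copies, so that their counts are uncertain.

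Cell cycle genes were lower in 189N3 and higher in Dp(16)1Yey/+ mice in 33 of 45, with medians of −0.17 and 0.25. Over all named loci 24.3% had this pattern and 16.7% were lower in both. Top2a, a topoisomerase of dividing cells, was at 5859, 5395 and 6698 against 7389, 6202 and 7720, and at 5874, 20909, 9920 and 9547 against 8318, 8684, 7175 and 7031. The Dp(16)1Yey/+ median was −0.01 without replicate 1, and the difference was then 0.16. Ribosomal protein genes had this pattern in 69 of 73 and were lower in both in 4, with medians of −0.23 and 0.21, and 0 of 73 had an unadjusted p-value under 0.05 for the difference. When Dp(16)1Yey replicate 1 was left out, their Dp(16)1Yey/+ median was −0.02 and the difference 0.21. Their 189N3 median was −0.01 without 189N3 replicate 1 and −0.05 without 189N3 littermate replicate 2. Genes of oxidative phosphorylation did so in 38 of 57, with medians of −0.10 and 0.10 and a median difference of 0.25. Both signs turned with a single library left out. Their median in Dp(16)1Yey/+ mice was −0.09 without Dp(16)1Yey replicate 1 and −0.01 without littermate replicate 1 of that line, and the 189N3 median was 0.11 without 189N3 replicate 1 and 0.02 without 189N3 littermate replicate 2. The difference was 0.05 without Dp(16)1Yey replicate 1 and 0.04 without 189N3 replicate 1. Of the 2 that passed there, Atp5j lies in the duplicated segment, and Atp5o, a subunit of ATP synthase like Atp5j, had effects of −0.16 and 0.56.

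Genes of the duplicated segment, at chr16:75540514-97962622, were the set in which the models differed by design. Of 96 named genes there, 84 were tested. Their median effect was 0.01 in 189N3 and 0.43 in Dp(16)1Yey/+ mice, and the median difference of 0.48 ran from 0.38 to 0.56 with single libraries left out. The difference had an unadjusted p-value under 0.05 in 24 of 84, all higher in Dp(16)1Yey/+ mice (1.53% of all loci). The Dp(16)1Yey/+ effect did so in 39 of 84 (2.1%) and the 189N3 effect in 1 of 84, which was Dyrk1a (0.358%). In 28 of 84 all Dp(16)1Yey/+ libraries lay above all littermates (1.72% of all loci). The smallest p-value was that of N6amt1, a methyltransferase, at 232, 233 and 279 against 237, 265 and 299 in the 189N3 line and 304, 304, 371 and 310 against 181, 199, 203 and 212 in the Dp(16)1Yey line. The Dp(16)1Yey groups did not overlap, and the difference was 0.80 ± 0.23 (unadjusted p = 0.00324). Pigp, a subunit of the enzyme that starts GPI anchor synthesis, had a difference of 1.02 ± 0.32 and Cryzl1, a quinone oxidoreductase-like gene, of 0.75 ± 0.24. Hspa13, an HSP70 family member, and the transcript B130034C11Rik had 0.76 ± 0.25 and 0.78 ± 0.26.

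**Figure D5:**
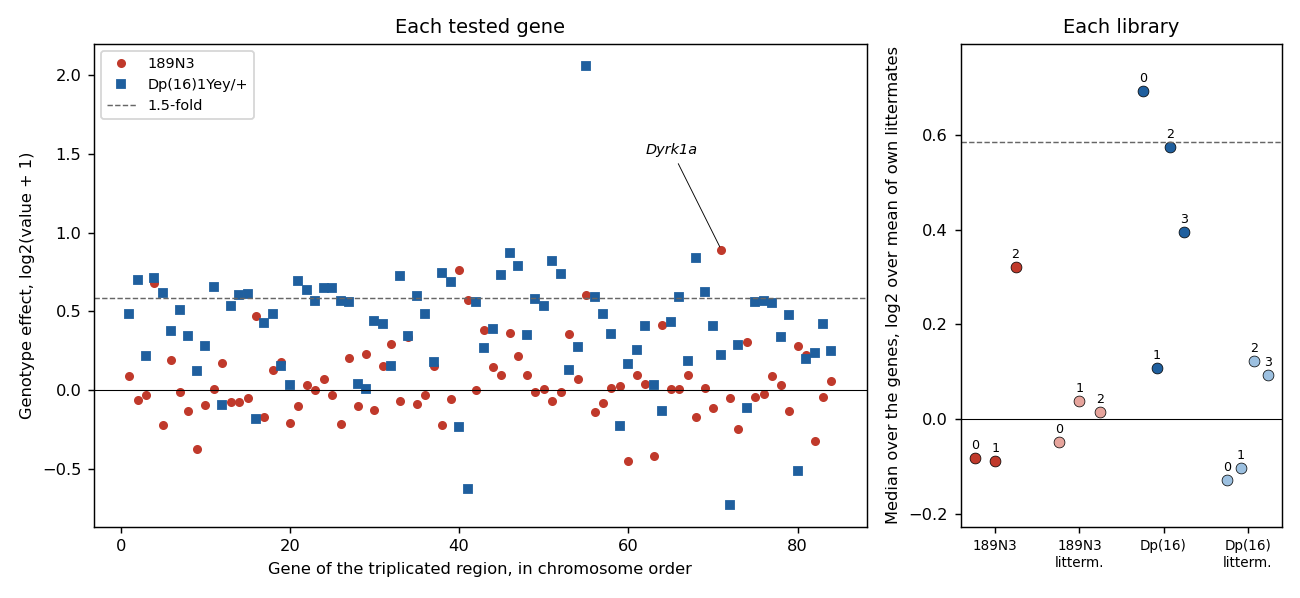
Left, genotype effect on log2(value + 1) of 84 genes of the duplicated segment in chromosome order. Right, median over these genes in each library relative to the mean of its own littermates, with points numbered by replicate. The dashed line marks 1.5-fold. Dp(16)1Yey/+ libraries lie at 0.69, 0.11, 0.58 and 0.40, and 189N3 replicate 2 at 0.32.

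Not every gene of the segment had a positive effect in Dp(16)1Yey/+ mice. By sign, 37 were higher in both models, 38 lower in 189N3 and higher in Dp(16)1Yey/+ mice, 8 the reverse, and 1, the potassium channel gene Kcnj6 (−0.05 and −0.73), lower in both. The shares over all named loci were 18.6%, 24.3%, 40.3% and 16.7% in this order. In 189N3 mice alone 45 were higher and 39 lower. Among the 8, picked here after their values were seen, App had effects of 0.47 and −0.18, Olig1 0.57 and −0.63 and Olig2 0.76 and −0.24. Their differences of −0.65, −1.20 and −0.996 had unadjusted p-values of 0.213, 0.207 and 0.171. The sign of these 3 genes in each model was that of the oligodendrocyte precursor median, and Olig1 and Olig2 are themselves members of that list. It was also that of the synaptic, guidance and immature neuron medians and of 40.3% of all named loci, so it is not particular to that list.

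Dyrk1a, at chr16:94570010-94695517, is the gene with an extra copy in both models. Its values were 4248, 3938 and 5877 in 189N3 libraries against 2448, 2977 and 2126 in littermates, without overlap. In Dp(16)1Yey/+ libraries they were 4781, 2124, 3600 and 3044 against 2488, 2397, 3171 and 3175. Here the groups overlapped, and replicate 1 lay below all littermates. The effects were 0.89 ± 0.26 in 189N3 (unadjusted p = 0.00332) and 0.22 ± 0.22 in Dp(16)1Yey/+ mice (unadjusted p = 0.334). The difference of −0.67 ± 0.34 had an unadjusted p = 0.0686 and an adjusted p-value of 0.922 in limma. An exact permutation test that shuffled genotype labels within lines gave p = 0.204 over 1400 label sets. Such shuffling assumes no genotype effect in either line, whereas Dyrk1a has an extra copy in both. The permutation p-value therefore cannot decide whether the Dyrk1a effects differ between the models. When Dp(16)1Yey replicate 1 was left out, the Dp(16)1Yey/+ effect was 0.43 and the difference −0.46. Among 11 kinases of the DYRK, HIPK and CLK families the medians were 0.06 and −0.09, and Dyrk1a was the one with an unadjusted p-value under 0.05 in either model.

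Several lists had medians near 0 in at least 1 model. Over all loci 2.66% passed, that is had an unadjusted p-value under 0.05 for the difference. Neural progenitor genes had medians of −0.09 and −0.15 and 0 of 24 passed for the difference. Hedgehog genes had 0.06 and −0.04 with 0 of 13, and splicing factors of the SR family 0.03 and 0.10 with 2 of 21, of which Son lies in the duplicated segment. Microglia had −0.07 and −0.10 with 1 of 16, Mrc1, the mannose receptor that also marks border macrophages. WNT genes were lower in both in 12 of 29 (16.7% of all named loci) and had medians of −0.02 and −0.26, and 0 of 29 passed. The sign of the difference of the progenitor, microglia and SR medians turned with the scaling. Calcineurin and NFAT genes, a pathway opposed by DYRK1A, had medians of 0.01 and −0.13 with 0 of 13.

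The retinoic acid list had medians of 0.02 and −0.19 over 17 genes and held a single gene under the threshold for the difference. Cyp26b1, which degrades retinoic acid, was at 86.3, 76.7 and 332 against 113, 207 and 105 in the 189N3 line. In the Dp(16)1Yey line it was at 115, 49.4, 87.8 and 92.6 against 183, 200, 339 and 400, with no overlap there. Its effects were −0.05 and −1.68, and the difference was −1.62 (unadjusted p = 0.0218). Among immediate early genes, Egr3 was the single one under the threshold, with effects of 0.35 and −1.69 and a difference of −2.05 (unadjusted p = 0.0385). Interneuron lineage genes had medians of −0.01 and −0.10 and 0 of 22 passed for the difference, and Prox1, which in the hippocampus marks dentate granule cells as well, had effects of −0.01 and −0.89. Of 23 hippocampal field genes, 12 were higher in 189N3 and lower in Dp(16)1Yey/+ mice (40.3% of all named loci), with medians of 0.17 and −0.27. The 1 that passed for the difference was Dsp, a desmosomal gene that is also in the skin list.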

How the data were processed

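Hippocampi of embryos were sequenced as stranded libraries of total RNA per the methods (polyA RNA per the labels), as paired reads of 100 bases. The authors mapped reads to mm10 with Bowtie and TopHat and merged and quantified transcripts with Cufflinks; versions are not given in the sources used here. The deposited signal values of the gene table are fragments per locus divided by a size factor for each library. Nonzero values were whole multiples of 1 step per library (100% within 0.1). Loci were named by matching isoform sums to the deposited map (17470 named), with positions from GENCODE vM21. Effects were tested on log2(value + 1) in R 4.3.3 with limma 3.58.1 (1 fit of 4 groups, trend, Benjamini-Hochberg adjustment). edgeR 4.0.16 and DESeq2 1.42.0 were run on recovered fragments. SE are those of limma. The interaction test was tested on simulated data: 100% of 200 genes changed 4-fold in 1 model were called among 36045 at a dispersion of 0.03. Replicates here differed by more (8.95 to 110 times counting noise, the nearly alike littermates aside), so this checks the code and does not give the power in these data. Named genes were the 8 smallest p-values of the difference per direction, 6 per sign pattern by the larger p-value, 5 of the segment, Dyrk1a, and up to 4 per list; others are stated as chosen after their values were seen or as members of counts. The members and the 34 lists were chosen with earlier results of these data known. Figures were drawn with Matplotlib 3.10.9. Some genes are not reported here.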

Additional observations from a re-analysis of the deposited data

Results flagged for a closer look

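Of 148 groups of 4 libraries examined for 1 library far from the others, 5 were flagged by Dixon's ratio, and chance flags about 1 group in 20. Replicate 1 of Dp(16)1Yey/+ had a histone level of 1.44 (mean centred log2) against −0.21 to −0.01 in the other libraries of its group. Dbn1 was at 5156 in Dp(16)1Yey/+ replicate 0, and N6amt1 at 371 in replicate 2. Among littermates of that line, Frem2 was at 397 in replicate 3 and B130034C11Rik at 86.5 in replicate 0.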

How the results depend on the processing

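Counts of loci at an unadjusted p-value under 0.05 moved by over 1.5 times with the filter and the libraries. The main counts were 957 for the difference, 17 alike and 40 opposite. They were 1751, 65 and 61 without a filter, 338, 5 and 13 with a mean of at least 100, 391, 5 and 15 over named loci alone, and 427, 5 and 12 with the nearly alike littermates averaged. Separate fits gave 24 opposite loci, no trend 27 alike, edgeR 30 alike and DESeq2 42 alike. The correlation over all loci was −0.084, −0.22 at a mean of at least 100 and −0.28 over named loci. Same-numbered libraries did not deviate together (correlations of −0.32 to −0.03 in the 189N3 and −0.44 to −0.07 in the Dp(16)1Yey line), so the numbers do not pair them. Differently numbered ones ranged from −0.21 to 0.38 and from −0.46 to 0.46. Dp(16)1Yey replicate 0 went with littermate replicates 2 and 3 (0.40 and 0.45), and replicate 2 with littermate replicates 0 and 1 (0.46 and 0.45). Mutants and littermates thus shared subgroups for which the main fit has no term. The replicate block gave 511, 10 and 25 loci. With single libraries left out, loci at an adjusted p-value under 0.05 numbered 0 to 1 (1 without Dp(16)1Yey replicate 1), the difference 480 (without 189N3 littermate replicate 2) to 3450 (without Dp(16)1Yey replicate 0), alike 8 to 91 (91 without Dp(16)1Yey replicate 2), opposite 10 to 79 and the correlation −0.21 to 0.086. The segment median ran from 0.38 to 0.56 and Dyrk1a from −0.85 to −0.46. Of the opposite loci, 8 were called again without 189N3 littermate replicate 2 and 14 without Dp(16)1Yey replicate 1. Of the values of single genes labelled under these settings, 998 were marked as the same as in the main fit. This mark is coarse and does not measure stability. Differences near 0 did turn sign and still carried it, as for Ermn without 189N3 replicate 1 and Ccdc103 without 189N3 littermate replicate 0. The cause of these shifts was not tested. Depth limits loci averaging about 10, which hold few fragments.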
